A study of Canis lupus familiaris with 26 samples.

Results

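The genes described are those of the cytosolic ribosomal proteins, read in the corpus luteum (CL) of the dog. Members were the genes whose symbol, in the tables of differentially expressed genes (DEGs) that accompany the study, begins with RPS or RPL followed by a number or is RPLP0, with the RPS6K kinases left out. The rule gave 56 identifiers of the 19856 genes counted. Only genes on those tables carry a symbol, so a gene came in because of its own values in these samples: 52 members were on the list of genes lower with time (controls of days 20+30 set against controls of days 5+10), 49 on the list of genes higher with treatment on day 20, and 23 on the list of genes higher with treatment on day 30. No member was on any treatment list of day 5 or day 10. Values of the members in the time, day 20 and day 30 contrasts are therefore descriptions. Counts of members past a threshold in these contrasts are printed beside the share of all genes and are no evidence about the members, and no P value of a single member is given there.

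The CL came from mixed-breed bitches of different ages, and each sample was the trimmed luteal tissue of a separate animal. Treated animals received firocoxib by mouth every day at 10 mg/kg from the day of ovulation, and controls received a placebo for the same time. Firocoxib (Previcox) inhibits PTGS2, also known as COX2, the inducible enzyme of prostaglandin synthesis. CLs were collected on day 5, with 4 control and 4 treated samples, and on days 10, 20 and 30, with 3 control and 3 treated samples each, 26 in all. The first pair of days covers the growing CL, which the study describes as at least partly independent of pituitary gonadotropins. The second pair covers the fully formed gland, which comes to need pituitary support. Whole tissue was sequenced, so a library holds RNA of luteal, endothelial, stromal and blood cells together. Drug exposure also grew longer with the day of collection, so the day and the length of treatment cannot be told apart within the treated groups.

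Ribosomes are built from ribosomal RNA and about equal molar amounts of the ribosomal proteins, which sit in a small subunit that reads the mRNA and a large subunit that joins amino acids. Their mRNAs belong to the TOP family, named for a run of pyrimidines at the 5′ end, and the translation of this family is controlled as a group by mTORC1 through LARP1 and related proteins. In the CL, luteinized cells grow strongly after ovulation and carry out steroid synthesis, which needs continuing protein synthesis.

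Of the 56 members, 25 belonged to the small subunit and 29 to the large subunit. Among those of the small subunit were RPS3, RPS4X, RPS6, RPS7, RPS9, RPS10, RPS12, RPS14, RPS15, RPS15A, RPS16, RPS18, RPS19, RPS21, RPS23, RPS24, RPS26, RPS27 and RPS27A, with 2 identifiers each for RPS10 and RPS27. Among those of the large subunit were RPL3, RPL4, RPL5, RPL7, RPL7A, RPL8, RPL9, RPL10A, RPL11, RPL12, RPL13, RPL13A, RPL14, RPL15, RPL18, RPL19, RPL23, RPL23A, RPL24, RPL26, RPL27, RPL27A, RPL28, RPL31, RPL32, RPL35, RPL35A and RPLP0. The other 2, RPL22L1 and RPS19BP1, match the rule but are not canonical ribosomal proteins. RPL22L1 is a paralog of RPL22, and RPS19BP1 is a protein that binds RPS19. Of 80 canonical ribosomal protein symbols looked for, 24 had no identifier here and were not analysed. Values of single genes and ranges over genes are given for 51 of the 56, and counts and medians for all 56. Ribosomal protein genes have many near-identical processed copies in mammalian genomes, and how reads matching several places were counted is not given in the sources used here, so each level may include or miss reads of a copy.

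Libraries held 12831896 to 22658950 counted reads. All 56 members passed the filter on low counts in every contrast, a mean of at least 10 reads in 1 of the groups compared. Levels are given as CPM, counts per 1000000 reads of the TMM-scaled library, a scaling that sets the bulk of genes level between samples. Gene lengths were not used, so levels are compared between samples, and a gene said to hold the most reads of a list need not have the most mRNA. Some libraries stood apart from their own group. The mean correlation with the other samples of the group over all genes was 0.7998 for day 20 treated 2, 0.835 for day 20 treated 3, 0.851 for day 5 treated 1 and 0.862 for day 10 treated 1. No 2 libraries were copies of each other. The medians, sums and non-overlap counts of days 5, 10 and 20 and the order of departures among the members are also given without them.

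Ribosomal protein mRNA took its lowest share of the library in the day 20 controls and its highest share in the day 20 treated CL. In day 5 controls the 56 genes held 5.89, 2.92, 4.19 and 3.62% of all counted reads, and in day 10 controls 6.49, 5.39 and 4.52%. In day 20 controls they held 1.72, 2.12 and 3.08%, and in day 30 controls 3.29, 2.43 and 2.73%. The early and mature control shares overlapped at their edges, since day 5 control 3 lay below the highest mature values. As means, the share was 4.72% ± 1.27 (SD, n = 7) in days 5+10 control and 2.56% ± 0.592 (n = 6) in days 20+30 control. In whole tissue, fewer cells rich in these mRNAs and less of the mRNA per cell cannot be told apart.

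In treated CL the 2 highest shares were of day 20. Day 5 treated samples held 6.86, 4.75, 4.32 and 4.64% and day 10 treated samples 4.58, 4.38 and 3.49%. Day 20 treated samples held 8.39, 8.34 and 5.86% and day 30 treated samples 3.97, 4.11 and 4.57%. All 3 day 20 treated samples lay above every day 20 and day 30 control, and so did all 3 day 30 treated samples, while on days 5 and 10 treated and control values overlapped. The mean of the summed CPM was 2.52-fold that of controls on day 20 and 1.47-fold on day 30, against 1.30-fold on day 5 and 0.834-fold on day 10. Without the libraries that stood apart it was 1.14-fold on day 5, 0.817-fold on day 10, and 2.33-fold without treated 2 or 2.53-fold without treated 3 on day 20. Against the days 5+10 control mean, day 20 treated stood at 1.37-fold and day 30 treated at 0.896-fold. The ratio of small to large subunit reads stayed between 0.761 and 0.868 in the 26 samples, so the sums of both subunits moved side by side.

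**Figure D1:**
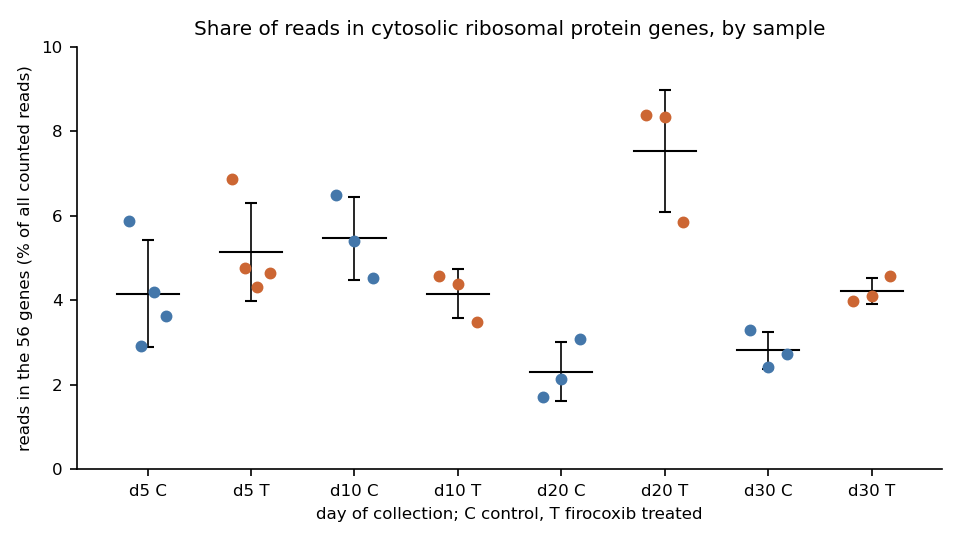
Share of all counted reads that fell in the 56 genes (y axis, %), by day and treatment (x axis). Points are samples, blue for control and orange for firocoxib, with bars for the mean ± SD. The day 20 treated samples lie between 5.86 and 8.39% and the day 20 controls between 1.72 and 3.08%.

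Ranked by summed CPM over the members, day 20 treated 2 was highest with 73355 CPM, followed by day 5 treated 1 with 70408 CPM. The lowest was day 20 control 1 with 17732 CPM, and 48 of the 56 members had their lowest value in that library. The highest value of a member fell in day 5 treated 1 for 22 members, in day 20 treated 2 for 16 and in day 20 treated 3 for 12. A few libraries thus set the upper and lower ends of most of these genes.

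The time contrast asks what changed in the control CL between its development and its maturity. All 56 members were lower in days 20+30 control than in days 5+10 control, and the median log2 fold change was -0.87. Over the 51 members reported by name the range was -1.74 to -0.38. The median of all 13503 genes tested was 0.02, and 48.7% of them were lower. By the study's thresholds (P under 0.01 and FDR under 0.1, here with edgeR's quasi-likelihood test) 45 of the 56 were lower. In the same contrast 10.4% of all genes were called lower, but as this contrast chose most of the members nothing is read from the count. Of the 51, members on the list had log2 fold changes from -1.74 to -0.49, and those not on it from -0.56 to -0.38. Among the 11 that missed the thresholds here were RPS15A, RPS18, RPS24, RPL4, RPL5, RPL19, RPL28, RPS19BP1, the RPS10 identifier ENSCAFG00000008935 and the RPS27 identifier ENSCAFG00000012234.

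In the small subunit, RPS3 (ENSCAFG00000005402), which lines the site where mRNA enters the ribosome, ran from 862 CPM through a median of 1287 to 1841 CPM in days 5+10 control. It ran from 465 through 706 to 974 CPM in days 20+30 control, a log2 fold change of -0.90 ± 0.22 (SE). RPS6, the substrate of the S6 kinases that act below mTORC1, went from 705, 1093 and 1425 CPM (lowest, median, highest) to 469, 706 and 846 CPM, a log2 fold change of -0.62 ± 0.20. For both genes the ranges overlapped while the medians lay well apart.

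RPS14, a small subunit protein lost in a form of myelodysplastic syndrome, had a log2 fold change of -1.05 ± 0.25 with time, from 772, 1328 and 1992 CPM (lowest, median, highest) to 395, 618 and 982 CPM. RPS19, the protein most often mutated in Diamond-Blackfan anemia, stood at -1.24 ± 0.28, from 354, 680 and 976 CPM to 157, 244 and 470.0 CPM. RPL3, which lies close to the peptidyl transferase center, stood at -0.83 ± 0.24, from 686, 1318 and 1583 CPM to 395, 584 and 1077 CPM. In each of the 3 genes day 20 control 1 held the lowest value and day 5 control 3 the lowest early one, and the early and late ranges overlapped.

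RPS26, which contacts mRNA near the exit site, had the most negative change of all members. It read 217, 512 and 939 CPM at its lowest, median and highest in days 5+10 control and 75.1, 113 and 387 CPM in days 20+30 control, a log2 fold change of -1.74 ± 0.38. Next came RPS15 with -1.66, RPS21 with -1.52 and RPS9 with -1.40, all of the small subunit. Among the smallest changes were those of RPL4 (-0.38), RPL5 (-0.41) and RPS15A (-0.49). RPL5 forms a particle with RPL11 and the 5S rRNA that can bind MDM2 when ribosome assembly is disturbed, and it ran from 951 through 1413 to 1679 CPM early and from 775 through 1015 to 1183 CPM late. Over the small subunit genes alone the median log2 fold change was -0.93, and over the large subunit genes alone it was -0.84. The difference between the subunits was not tested.

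In 6 members no mature control reached the lowest early control. These were RPL14, RPL22L1, RPL23, RPL23A, RPL26 and RPL31, against 2.46% of all genes with such a gap in this direction. RPL23, a large subunit protein that also binds MDM2, ran from 436 through 642 to 950 CPM in days 5+10 control and from 246 through 372 to 416 CPM in days 20+30 control. RPL31 ran from 146 through 188 to 256 CPM and from 94.7 through 106 to 145 CPM, so its ranges came within a few CPM of each other. The genes with the widest gaps in ratio, RPS26 and RPS15, were not among these 6, since their early and late samples varied far more.

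Within the early controls, day 10 can be set against day 5, a contrast that no list used and that splits samples pooled in the time contrast. Of the 56 members 54 were higher at day 10, and the median log2 fold change was 0.47 (range -0.18 to 1.28), where the median of all 13538 genes was -0.02 and 48.3% of them were higher. No member passed the thresholds with edgeR, and 0.00739% of all genes did, 1 gene. At an unadjusted P under 0.05, 6 members were higher, against 3.02% of all genes. Leaving out 1 library moved the 6 widely, to 39 without day 5 control 1 and to 1 without day 5 control 3, day 5 control 4 or day 10 control 2. With another tool, DESeq2, the 6 became 17, and with the replicate number as a block they became 2. The share of all genes at this P is not given for these fits, so nothing is read from their counts. RPL7, a large subunit protein that binds rRNA, read 1965, 1489, 1513 and 1714 CPM in day 5 controls and 2745, 2398 and 2602 CPM in day 10 controls. These values did not overlap and the log2 fold change was 0.63 ± 0.21 (edgeR FDR 0.592). DESeq2, run as an alternative, called RPL7 alone of the members, with a log2 fold change of 0.64 and an FDR of 0.0417, among 144 genes in all.

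RPS27A, made as a fusion with ubiquitin, read 1394, 779, 880.0 and 936 CPM at day 5 and 1812, 1443 and 1514 CPM at day 10, with no overlap (log2 fold change 0.67 ± 0.25, edgeR FDR 0.644). RPL13A, known also as a part of the complex that silences inflammatory mRNAs in myeloid cells, read 1793, 778, 1369 and 1279.6 CPM at day 5 and 2532, 1845 and 1973 CPM at day 10 (0.70 ± 0.29, edgeR FDR 0.688). RPL31 was another member whose day 5 and day 10 controls did not overlap. Against 6 such members in all stood 3.26% of all genes with such a gap upward.

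From day 5 treated to day 10 treated the median log2 fold change of the members was -0.13, with 12 higher and 44 lower. Over the 51 members reported by name the range was -0.83 to 0.38. The median of all 13613 genes was 0.01, and 49.6% of them were lower. The members' median became 0.05 without day 10 treated 5. No member and no gene of any kind was called in edgeR, and no member had an unadjusted P under 0.05, where 4.44% of all genes did. None of the samples in this contrast entered the time, day 20 or day 30 lists. The difference between the control and the treated course was not tested.

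The day 20 contrast asks what prostaglandin synthesis inhibition did as the CL passed toward gonadotropin dependence. All 56 members were higher in day 20 treated than in day 20 control, and the median log2 fold change was 1.45. Over the 51 members reported by name the range was 0.47 to 2.14. The median of all 13726 genes was 0.11, and 54.3% of them were higher. With edgeR no member passed the thresholds, and 0.102% of all genes did, 14 genes, all higher. At an unadjusted P under 0.05 there were 48 members, all higher, against 11.7% of all genes, and in 51 members the 3 treated values all lay above the 3 control values, against 15.8% of all genes. The 48 became 24 without day 20 control 1, 23 without day 20 control 2 and 0 with the replicate number as a block. Only 2 numbers were shared by the groups, which leaves the blocked fit little to estimate the spread, so its 0 decides nothing. The share of all genes at this P is not given for these fits. This contrast chose 49 of the members, so nothing is read from these counts. With DESeq2, the tool behind the lists, 45 members were called among 1479 genes.

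RPS3 read 465, 695 and 974 CPM in day 20 controls and 2679.7, 2036 and 1958 CPM in day 20 treated CL, a log2 fold change of 1.68 ± 0.47. RPS6 read 469, 648 and 841 CPM in controls and 1605, 1658 and 1437 CPM in treated CL, a log2 fold change of 1.31 ± 0.44. RPL11, the partner of RPL5 in MDM2 binding, read 299.9, 488 and 587 CPM in controls and 1459, 1342 and 1142 CPM in treated CL, a log2 fold change of 1.56 ± 0.45. In these 3 genes the lowest treated sample stood well above the highest control.

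RPS14 read 395, 537 and 982 CPM in controls and 2611, 2044 and 1656 CPM in treated CL, a log2 fold change of 1.76 ± 0.52. RPS19 read 157, 215 and 439 CPM in controls and 1085, 668 and 728 CPM in treated CL, a log2 fold change of 1.65 ± 0.53. RPL3 read 395, 566 and 811 CPM in controls and 2018, 1343 and 1267 CPM in treated CL, a log2 fold change of 1.42 ± 0.47. Here too no treated value reached down to a control value, and day 20 treated 2 was the highest.

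Among the most positive changes were those of RPS26 (2.14 ± 0.58), RPS16 (2.03 ± 0.50) and RPS9 (1.99 ± 0.60). RPS26 read 75.1, 98.3 and 202 CPM in controls and 862, 409.7 and 347 CPM in treated CL. RPS16 read 109, 132 and 237 CPM in controls and 902, 486 and 515 CPM in treated CL. In each of these genes day 20 treated 2 was the highest sample, by a wide margin. In RPLP0, which carries the stalk of the large subunit, the log2 fold change was 1.59 ± 0.53, with 442 CPM ± 179 (SD, n = 3) in controls and 1299 CPM ± 614 (n = 3) in treated CL.

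At the other end, RPS24, RPL22L1, RPL31 and RPS19BP1 had the smallest changes, with log2 fold changes of 0.47, 0.56, 0.67 and 0.72. RPS24, mutated in a part of Diamond-Blackfan anemia, read 317, 489.8 and 298 CPM in controls and 249.6, 823 and 396 CPM in treated CL. Without day 20 treated 3 the log2 fold change of RPS24 was -0.15, so its direction rested on that library. RPL7 read 1087, 1768 and 1375 CPM in controls and 998, 3679 and 2309 CPM in treated CL. RPL5 read 775, 1049.6 and 941 CPM in controls and 1042, 2461 and 1800.0 CPM in treated CL. In all 3 genes day 20 treated 2 was the lowest treated sample, the reverse of its place in RPS26 and RPS16. It lay below every day 20 control in RPS24 and RPL7 and within the control range in RPL5. RPL5, RPL7, RPL31, RPS24 and RPS19BP1 were the 5 members whose day 20 groups overlapped. Without day 20 treated 3, 52 members had groups that did not overlap, beside 3109 genes in all where there had been 2175, and the median was 1.45. Without day 20 treated 2, 54 members had such groups, beside 3050 genes in all, the median was 1.30, and edgeR then called 5 members (RPL14, RPL23A, RPL27A, RPS16 and RPS26) among 1016 genes.

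On day 30, 55 of 56 members were higher in treated than in control CL, and the median log2 fold change was 0.69. Over the 51 members reported by name the range was -0.01 to 0.93. The median of all 13196 genes was 0.05, and 55.5% of them were higher. No member and no gene passed the thresholds in edgeR. At an unadjusted P under 0.05 there were 37 members, all higher, against 5.52% of all genes, and 30 members had treated values wholly above control values, against 5.66%. The 37 became 4 without control 3, 20 without control 4, 9 without treated 4 and 18 without treated 5. They became 24 with no filter, 10 with all 26 samples in 1 fit and 1 with the replicate number as a block. As on day 20, only 2 numbers were shared by the groups, so the blocked count decides nothing. The share of all genes at this P is not given for these fits. This contrast chose 23 members. Among the 51 members reported by name, the log2 fold changes of those chosen ran from 0.58 to 0.93 and the others from -0.01 to 0.78. DESeq2, the tool behind the list, called 0 members when run here, among 116 genes in all. Again nothing is read from the counts.

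RPL24 had one of the largest day 30 changes, reading 413, 373 and 523 CPM in controls and 556, 918 and 822 CPM in treated CL (0.93 ± 0.26). RPS23, which helps keep decoding accurate, read 382, 241 and 260.4 CPM in controls and 434, 516 and 521 CPM in treated CL (0.85 ± 0.24). RPS27A followed with 0.83 ± 0.23. RPS3 stood at 0.78 ± 0.24, with 852, 652 and 717 CPM in controls and 928, 1341 and 1257 CPM in treated CL. In each of these genes treated 2 was the lowest of the day 30 treated samples. The smallest changes were those of RPS19BP1 (-0.01), RPL22L1 (0.27), RPS15 (0.39) and RPL15 (0.46). Leaving out a control changed the sign for RPS15 (-0.014 without control 4) and for RPS19BP1 (0.33 without control 2). The places of both in this order thus rest on single controls, and their full ranges are given with the processing. In RPS15, day 30 control 2 read 89.5 CPM, above all 3 treated samples, and the other controls read 24.4 and 15.3 CPM.

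On day 5 the members had a median log2 fold change of 0.38 for treated over control, with 48 higher and 8 lower, where the median of all 13651 genes was 0.03 and 51.4% of them were higher. Neither a member nor any other gene passed the thresholds in edgeR, and 4 members had an unadjusted P under 0.05, all higher, against 8.71% of all genes. The 4 became 15 without day 5 control 1, 8 without treated 4 and 7 without treated 5. They became 1 without control 3 or control 4, and 2 without control 5. The share of all genes at this P is not given for these fits, so nothing is read from their counts. Among the 4 members were RPS15 (1.04 ± 0.41), RPS9 (0.96 ± 0.41) and RPL28 (1.02 ± 0.45), each with an edgeR FDR of 0.412. RPS15, which takes part in the export of the small subunit from the nucleus, read 121, 40.9, 102 and 102 CPM in controls and 311, 137, 119.9 and 179.8 CPM in treated CL. The highest value was again day 5 treated 1. Without that library the median fell to 0.16 and no member had an unadjusted P under 0.05. In no member did the day 5 groups stand wholly apart, against 5.01% of all genes higher, and without day 5 treated 1 there was again none, among 769 genes.

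On day 10 the median was -0.25, with 4 members higher and 52 lower, where the median of all 13416 genes was 0.02 and 48% of them were lower. No member and no gene was called in edgeR, no member had an unadjusted P under 0.05, against 0.902% of all genes, and only RPL15 had treated values wholly below control values, against 2.76% of all genes. Without day 10 treated 1 the median was -0.32, and 2 members among 1495 genes lay wholly below controls. Over the fits that left out 1 sample the median ran from -0.45 (without treated 4) to -0.09 (without treated 5). Without day 10 treated 4, 6 members had an unadjusted P under 0.05. The share of all genes at this P is not given for that fit, so nothing is read from the 6. RPL15 read 466, 319 and 349 CPM in controls and 294, 315 and 219.9 CPM in treated CL, so the gap between the groups was a few CPM (log2 fold change -0.44 ± 0.33). Day 5 and day 10 controls also enter the time contrast, and the treated contrasts of days 20 and 30 share their controls with it. Low mature controls make the time contrast more negative and these treated contrasts more positive. Whether the treatment effect differed between days was not tested.

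**Figure D2:**
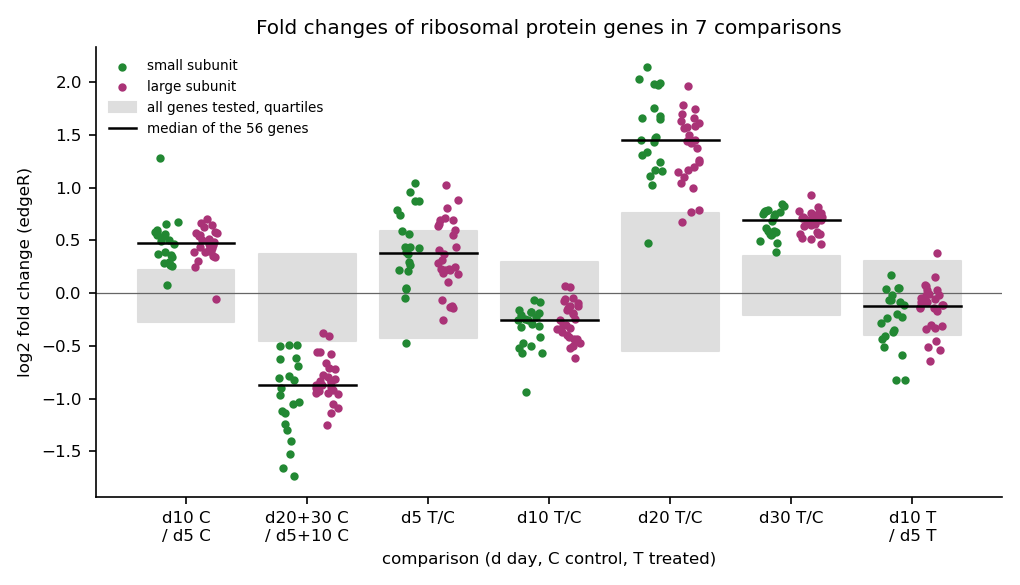
Log2 fold change in edgeR (y axis) of 49 small and large subunit identifiers in 7 contrasts (x axis, d for day, C control, T treated). Points are genes, black lines the median over all 56 members, and grey boxes the quartiles of all genes tested. The points lie below 0 for time and above 0 at day 20.

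Most members rose and fell with the rest from sample to sample. Over the 26 samples and the 53 members with a mean of at least 20 CPM, the correlation of a gene with the mean of the other members had a median of 0.939, with 35 genes above 0.9, 43 above 0.8 and 4 below 0.5. These points share groups, libraries and scaling, so the values are descriptions. RPS15 left the common course furthest, with a residual SD of 0.788 on the log2 scale. RPS24 had the lowest correlation, 0.0489.

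The departures from the common course had an order of their own. They held 30.1% of the members' sum of squares, and 70.3% of that lay on 1 axis, with 10.3% on the next. At one end lay RPS15, RPS21, RPS26, RPL28, RPS9 and RPL8, and at the other RPS24, RPL7, RPL5, RPL22L1, RPL26 and RPL31, sets picked by these values after they were seen. Both ends hold genes of both subunits. The mean log2 difference between the first 6 and the last 6, centred over samples, was highest in day 5 treated 1 (2.55), day 10 treated 1 (1.87) and day 20 treated 2 (1.62). It was lowest in day 20 control 2 (-1.88), day 20 control 1 (-1.78), day 30 control 4 (-1.40) and day 30 control 3 (-1.22). The first 3 libraries are of different days, and are 3 of the 4 that correlated least with their own groups. Without those 4 libraries the departures held 24.4% of the sum of squares, with 67.9% of that on the leading axis. All 6 genes of the first end stayed among its first 6, and 3 of the 6 of the other end among its last 6.

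**Figure D3:**
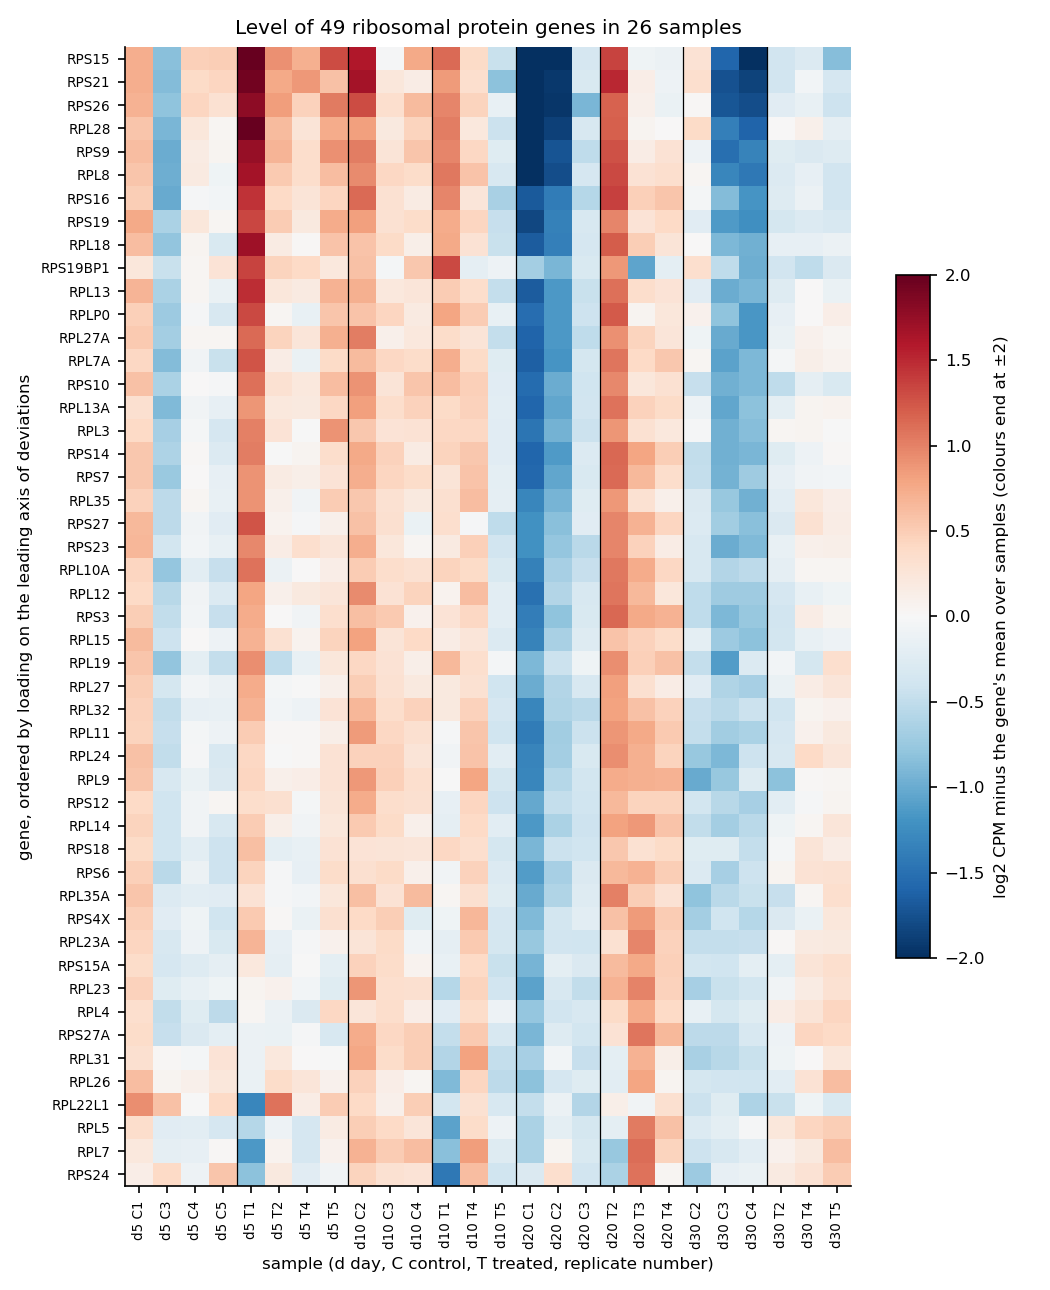
Log2 CPM minus the gene's mean over samples (colour, ending at ±2) for 49 members (rows, ordered along the leading axis of departures) in 26 samples (columns, with vertical lines between groups). Day 20 control 1 and 2 are blue through the upper rows, while day 5 treated 1 is red at the top and blue at the bottom, where RPL7 and RPS24 stand.

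The ratio of RPS15 to RPS24 shows the spread in 1 number. It was 1.43 in day 5 treated 1, 1.12 in day 10 treated 1 and 0.751 in day 20 treated 2, and it went down to 0.0294 in day 20 control 2. Without the 4 libraries that stood apart the highest ratio was 0.486, in day 5 treated 5. RPS21, a small subunit protein at the top end, read 539 CPM in day 5 treated 1 beside 241, 258 and 214 CPM in the rest of that group, and 403 CPM in day 20 treated 2 beside 156 and 132 CPM. RPS24 read 218 CPM in day 5 treated 1 beside 444, 329.8 and 369.8 CPM, and 143 CPM in day 10 treated 1 beside 594 and 292 CPM. Day 5 treated 1 was thus the highest of its group in RPS21 and the lowest in RPS24. The 2 genes were taken from opposite ends of the order, so this restates how they were picked.

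Of 16 initiation and elongation factors, 11 had the highest level of their group in day 5 treated 1 and 5 the lowest, where 37.2% of the 14171 genes above the filter were highest there and 41.4% lowest. In day 10 treated 1 the counts were also 11 and 5, where 45.1% of all genes were highest and 44.9% lowest, and in day 20 treated 2 they were 9 and 5, where 43.3% were highest and 44.2% lowest. EIF4G2, an initiation factor that works without the cap, read 447 CPM in day 5 treated 1 beside 1157, 1123 and 1432 CPM, and 474 CPM in day 20 treated 2 beside 1123 and 1432 CPM. EEF2, the translocase of elongation, read 6093 CPM in day 5 treated 1 beside 2612, 2059 and 3489 CPM. Other factors stood close to their group in 1 library and apart in another. EIF4A1, the helicase of initiation, read 679 CPM in day 5 treated 1 beside 635, 418 and 639 CPM, and 676 CPM in day 20 treated 2 beside 422 and 501 CPM. EIF4B, which stimulates it, read 1636 CPM in day 5 treated 1 beside 771, 669 and 1159.7 CPM, and 1310 CPM in day 20 treated 2, between 1532 and 1174 CPM. These genes were picked after their values were seen. RNA integrity values were not used here, so a part of RNA quality in this spread was not tested.

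**Figure D4:**
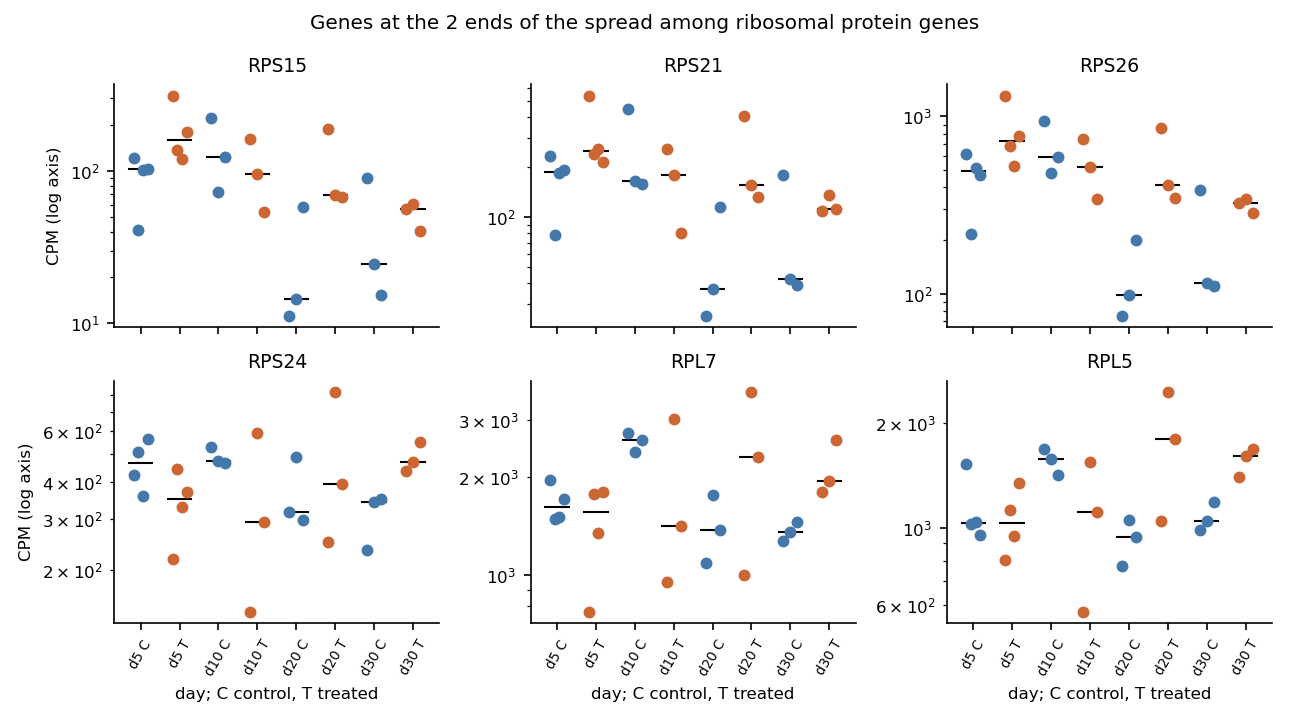
CPM on log axes for 3 members at the upper end (RPS15, RPS21, RPS26) and 3 at the lower end (RPS24, RPL7, RPL5) of the departures, by day and treatment. Points are samples, blue for control and orange for treated, with lines at the group medians. Day 20 treated holds its lowest RPL7 value (998 CPM) in the library with its highest RPS26 value (862 CPM).

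Of the symbols that 2 identifiers share, 1 identifier held nearly all reads. RPS10 ENSCAFG00000001214 read 174, 254 and 382 CPM in day 20 controls and 979, 589 and 619 CPM in day 20 treated CL, and RPS10 ENSCAFG00000008935 read 0.421, 1.40 and 2.17 CPM and 4.96, 2.47 and 2.50 CPM. RPS27 ENSCAFG00000017386 read 186, 242 and 369 CPM in day 20 controls and 849, 700.4 and 580.0 CPM in treated CL, and RPS27 ENSCAFG00000012234 read 0.661, 0.793 and 1.43 CPM and 3.94, 1.95 and 2.04 CPM. The weak identifier of each pair had the same order of groups at day 20 as the strong one. Reads of near-identical copies may pass between them, so the weak ones are uncertain.

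The 2 members outside the canonical set had correlations with the mean of the other members of 0.278 (RPL22L1) and 0.602 (RPS19BP1), and canonical members such as RPS24 and RPL7 (0.260) lay lower still. RPL22L1 read 59.3, 46.8, 31.0 and 41.0 CPM in day 5 controls, 22.4, 28.7 and 20.9 CPM in day 20 controls and 33.9, 29.6 and 39.1 CPM in day 20 treated CL. RPS19BP1 read 17.6, 15.1 and 22.9 CPM in day 20 controls and 51.6, 13.6 and 24.6 CPM in day 20 treated CL. RPL22L1 was higher in all 3 treated samples, and RPS19BP1 in 2.

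Some proteins work in or with the ribosome but fall outside the symbol rule. RPSA of the small subunit, FAU, whose product is cut into RPS30 and a ubiquitin-like protein, and RACK1, a scaffold on the small subunit, were all called lower in time, with log2 fold changes of -0.93, -1.05 and -0.69. At day 20 they stood at 1.39, 1.78 and 1.51 and at day 10 (treated over control) at 0.02, -0.13 and 0.04, with none called. RACK1 read 624.9, 853 and 1133 CPM in day 20 controls and 2961, 2186 and 2095 CPM in day 20 treated CL. These and all genes in the lists that follow have a symbol here only because they too were on the DEG lists, so their counts are not independent of the contrasts.

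Of 36 translation initiation factors looked for, 13 had an identifier. In time EIF2B2 (0.62) and EIF4G2 (0.41) were called higher and EIF3D (-0.58), EIF4A1 (-0.56) and EIF4B (-0.59) lower, and 8 were not called. At day 20 their median log2 fold change was 0.75 and at day 30 it was 0.54. Of the 3 elongation factors, EEF1D, which reloads EEF1A1 with GTP, was called lower in time (-1.33), and EEF2 (-0.64) and EEF1A1 (-0.18) were not called. The day 20 median of these 3 was 1.35. Of other TOP mRNAs all 3 with an identifier were called lower in time, PABPC4 (-0.75), HNRNPA1 (-0.49) and NPM1 (-0.46).

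Ribosome biogenesis factors did not share 1 direction in time. Of 11 with an identifier, POLR1A, the large subunit of RNA polymerase I (0.55), and RRN3, its initiation factor (0.59), were called higher. FBL, the methyltransferase of box C/D particles (-0.69), and NPM1 (-0.46) were called lower, and at day 20 the median of the 11 was 0.70. From a list of 18 genes of mTORC1, its regulators, its targets and the eIF2 kinases, 6 had an identifier, and none of these is a subunit of mTORC1. They were the targets EIF4EBP1, EIF4EBP3, LARP1 and EEF2K and the kinases EIF2AK2 and EIF2AK3. In time EIF4EBP3 (0.96), LARP1 (0.84) and EEF2K (0.53) were called higher and EIF4EBP1 lower (-2.30). LARP1 binds TOP mRNAs and represses their translation, EEF2K inhibits EEF2, and the EIF4EBP proteins hold back cap-dependent initiation. At day 20 the median of these 6 was -0.51, with EIF4EBP1 above 0 (0.60) and the other 5 below it, and none was called. EIF4EBP1 read 24.2, 3.52 and 7.80 CPM in treated CL and 6.13, 7.32 and 10.3 CPM in controls, so only day 20 treated 2 stood above the controls.

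Mitochondrial ribosomal proteins, which build the separate ribosome of mitochondria from nuclear genes, served as the nearest other set. Of 14 with an identifier, 7 were called lower in time and MRPS35 higher (0.62), with a median of -0.59. At day 20 their median was 0.46 and at day 30 it was 0.20, beside 1.45 and 0.69 for the cytosolic members. The difference between the sets was not tested.

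Markers of other cell types also differed between the day 20 groups. For the oocyte, 6 of 7 markers had an identifier (ZP2, ZP3, ZP4, GDF9, BMP15 and NOBOX), and their summed level was 149, 257 and 203 CPM in day 20 treated CL against 4.57, 9.27 and 6.68 CPM in controls. Of the 6, 4 were called higher in edgeR (ZP3, ZP4, GDF9 and BMP15), a part of the 14 genes called in that contrast. BMP15, which held the most reads of them in treated CL with 40.3, 84.2 and 70.4 CPM, was at 0 in 2 of the day 20 controls, and so was ZP3. In day 5 controls the oocyte sums were 97.6, 4.11, 26.9 and 9.22 CPM, in the same order as the ribosomal protein sums of 56476, 28672, 38810 and 35115 CPM. In day 5 treated CL they were 94.2, 14.1, 4.18 and 5.03 CPM, highest in the library with the highest ribosomal protein sum. They were 108, 115 and 6.78 CPM in day 10 controls and 4.27, 59.7 and 44.6 CPM in day 10 treated CL. On day 30 they were 129.6, 6.43 and 74.9 CPM in treated CL and 6.85, 19.8 and 24.0 CPM in controls, so those groups overlapped. The match of order did not extend to the other groups. Day 20 treated 2 had the lowest oocyte sum of its group and the highest ribosomal protein sum (73355 CPM), day 30 treated 2 had the highest oocyte sum of its group and the lowest ribosomal protein sum (36605 CPM), and the orders also differed in both day 10 groups.

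Smooth muscle markers, 6 of 6 with an identifier, summed to 1006, 428 and 459 CPM in day 20 treated CL and 150, 186 and 301 CPM in controls. On day 5 they summed to 1440, 2199, 3343 and 669 CPM in treated CL and 527, 294, 450.0 and 363 CPM in controls. Fibroblast markers, also 6 of 6, with COL1A2 holding the most reads, summed to 11790, 9690 and 13905 CPM in day 20 treated CL and 2883, 7269 and 6600.0 CPM in controls, and all 6 were called lower in time. At day 20 they did not share 1 direction. COL1A2 had a log2 fold change of 1.40 and LUM, a proteoglycan of the matrix, one of -1.45, with 47.9, 196 and 343 CPM in treated CL and 262, 907 and 499 CPM in controls, and none of the 6 was called. Of the granulosa cell markers 3 of 5 had an identifier, and at day 20 they did not share 1 direction. FSHR read 617, 249 and 555 CPM in treated CL and 1712, 2403 and 1947 CPM in controls, with no overlap. FST, an inhibitor of activin, read 32.2, 251 and 119 CPM in treated CL and 1.68, 8.53 and 10.4 CPM in controls, also with no overlap, and INHA had a log2 fold change of 0.35 with overlapping groups. The part of these cell types in the ribosomal protein levels was not tested.

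Luteal cells could be checked by 3 of 7 steroidogenic markers, LHCGR, PRLR and CYP19A1, which were present in every library and summed to 445, 355 and 1299 CPM in day 20 treated CL and 2264, 2509 and 1111 CPM in controls. In all of these but day 20 treated 3 most of the reads were of CYP19A1, the aromatase, with 334, 113 and 1066 CPM in treated CL and 1756, 2099 and 802 CPM in controls. LHCGR, the LH receptor, read 14.9, 119 and 59.5 CPM in treated CL and 115, 52.1 and 30.4 CPM in controls, a log2 fold change of 0.04 where PRLR stood at -1.34. Of the endothelial markers 5 of 7 had an identifier (PECAM1, CDH5, VWF, KDR and EMCN), and on day 30 their sum was 1178, 627 and 684 CPM in treated CL and 1584, 1981 and 1713 CPM in controls. All 5 were lower in day 30 treated CL, 4 of them without overlap. Their median log2 fold change was -0.98 and none was called, while the ribosomal protein genes were higher. On day 20 the endothelial sums overlapped, with 1383, 484 and 1149.7 CPM in treated CL and 1007, 1122 and 1272 CPM in controls. The part of the endothelium in the ribosomal protein levels was not tested. Of the leukocyte markers only CD68 of 8 had an identifier, of the cycling cell markers 3 of 7 and of the erythroid markers 1 of 3. CD68, of macrophages, read 4.69, 6.94 and 1.84 CPM in day 20 treated CL and 0.661, 0.305 and 2.17 CPM in controls, so the groups overlapped, and its highest level was 33.4 CPM in day 5 treated 1. ALAS2, of heme synthesis in red cell precursors, read 1.23, 2.23 and 8.62 CPM in day 20 treated CL and 0.120, 0.183 and 0.212 CPM in controls, with no overlap and not called. Among the cycling cell markers MCM2, a part of the replicative helicase, read 28.8, 16.4 and 18.7 CPM in day 20 treated CL and 2.52, 3.23 and 6.52 CPM in controls. CDK1, the kinase of mitotic entry, read 2.40, 6.32 and 10.9 CPM in treated CL and 5.83, 12.3 and 6.73 CPM in controls, and CCNA2 overlapped too.

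Markers of these cell types differed in the time contrast too, in which the ribosomal protein genes were lower in mature controls. Called lower beside the fibroblast markers were all 3 cycling cell markers (median -1.24), CD68 (-1.84), ALAS2 (-3.45), 3 of 6 smooth muscle markers (median of the 6 -1.19), 2 of 3 granulosa cell markers (median -1.62) and 2 of 6 oocyte markers (median -2.01). Called higher were 3 of 5 endothelial markers (median 0.81) and CYP19A1 (2.23). Their part in the ribosomal protein levels was not tested.

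**Figure D5:**
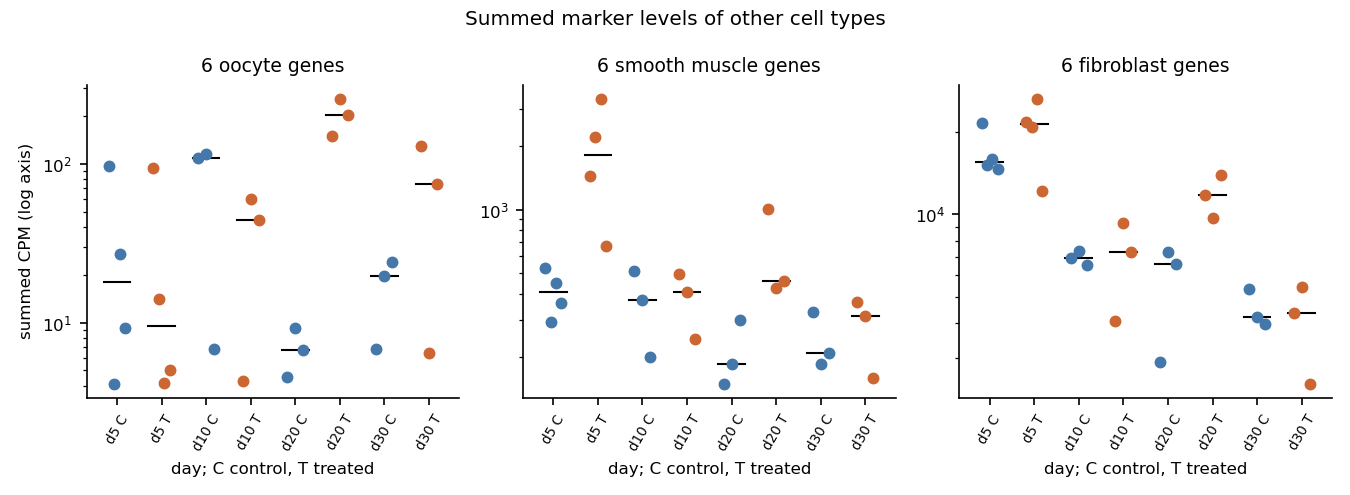
Summed CPM on log axes of 6 oocyte, 6 smooth muscle and 6 fibroblast markers, by day and treatment. Points are samples, blue for control and orange for treated, with lines at the group medians. The 3 day 20 treated samples lie above the 3 day 20 controls in each panel, with oocyte sums of 149 to 257 CPM against 4.57 to 9.27 CPM.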

How the data were processed

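Gene counts of 26 CL libraries, deposited per sample by the authors, were used as they stand. Per the labels and the study's methods, poly(A)-selected TruSeq libraries were mapped to CanFam3.1 by STAR, and featureCounts gave reads per gene. Versions are not given in the sources used here. Samples that the study set aside as outliers were not analysed here. Each contrast was fitted on its own samples with edgeR 4.0.16 (R 4.3.3): genes averaging 10 reads or more in 1 group, TMM factors, quasi-likelihood test, Benjamini-Hochberg adjustment over all genes, called at P under 0.01 and FDR under 0.1. DESeq2 1.42.0 was an alternative, with other scalings, filters, thresholds, a fit of all 26 samples, a replicate block and leaving out each sample. Sums, non-overlap counts and departures without the libraries that stood apart were added after the data were seen. Scripts were tested on simulated data. Depth was 12831896 to 22658950 reads per library. Replicates are separate animals.

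Members, gene lists and tests were chosen with earlier results of these data known. Genes named in the text were 12 well-known members, the 4 largest and 4 smallest fold changes in the time, day 20 and day 30 contrasts, members with shared or non-canonical symbols, members past the thresholds at day 10 over day 5, and from each list up to 3 genes in each direction with the marker that held the most reads. Members whose groups did not overlap or that had an unadjusted P under 0.05 on days 5 and 10, the genes at the ends of the spread, and RPL7, FSHR and the genes in samples that stood apart were named after their values were seen. Some genes that these rules take in are not reported here, and the figures of single genes leave them out. Symbols came from the study's DEG tables, whose fold changes and p-values were not used.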

Additional observations from a re-analysis of the deposited data

Results flagged for a closer look

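Of 128 groups of 4 to 7 samples looked at for named genes, 11 held a sample far from the rest of its group by Dixon's test at the 95% level, where chance gives about 5%. The groups are not independent, since the same libraries recur across genes.

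Day 5 treated 1 was the highest sample of its group in 6 of the 11. It read 539 CPM of RPS21 (next highest 258), 72.3 CPM of RPS19BP1 (next 38.7), 956 CPM of RPS16 (next 469.6) and 2191 CPM of RPL12 (next 1490.1). Both RPS27 identifiers stood out in it, ENSCAFG00000017386 with 1031 CPM (next 463) and ENSCAFG00000012234 with 2.95 CPM (next 1.55).

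Day 20 control 1 was the lowest of the 6 days 20+30 control samples for RPS15A, with 586 CPM (next lowest 843), and for RPL11, with 299.9 CPM (next lowest 486). Day 20 control 2 was the highest of the same samples for RPL31, with 145 CPM (next 110.5). Day 10 control 2 was the highest of the 7 days 5+10 control samples for RPS21, with 449 CPM (next 235). Day 5 control 1 was the highest of the 4 day 5 controls for RPL5, with 1527 CPM (next 1035).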

How the results depend on the processing

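Of 231 alternative values of counts and medians over the members, 226 stayed within 1.5 times the main count or within the spread between replicates, though 2 medians changed sign, those of day 10 over day 5 treated without day 5 treated 1 (0.03) and without day 10 treated 5 (0.05), from -0.13. The other 5 were at day 20 and day 10 over day 5 control. At day 20, members called went from 0 to 45 with DESeq2 (1479 genes in all) and to 48 with all 26 samples in 1 fit (1559 genes), against 14 genes in all with the main fit, and the log2 ratio of mean summed CPM went from 1.33 to 1.71 without TMM scaling. Called genes of any kind at day 20 were 95 with RLE factors, 109 with no filter and 129 with filterByExpr. At day 10 over day 5 control 1 member, RPL7, was called with DESeq2. Leaving out each sample moved the called members in time between 32 (without day 20 control 1) and 51 (without day 5 control 3). The medians ran from -0.96 to -0.77. Genes of any kind called in time fell from 2774 to 2166 without day 20 control 1. Their number without day 5 control 3 is not given here, so nothing is read from this range. At day 20 the called members moved between 0 and 5 (without day 20 treated 2, among 1016 genes), with medians from 1.23 to 1.72. Called members stayed at 0 and medians ran from 0.16 to 0.65 on day 5, -0.45 to -0.09 on day 10, 0.54 to 0.71 on day 30, 0.32 to 0.69 for day 10 over day 5 control and -0.37 to 0.05 for the treated. Of 1160 values of 31 named genes, 3 reversed, all under leaving out a sample. Another 31, all in time, lost the call, and 45 gained one, 34 of them at day 20, 10 in time and 1 for day 10 over day 5 control. RPS24 at day 20 ran from -0.15 (without treated 3) to 0.78 (without treated 2). At day 30, RPS19BP1 ran from -0.26 (without control 4) to 0.33 (without control 2), and RPS15 from -0.014 (without control 4) to 1.40 (without control 2). The cause was not tested.

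Counts of members with an unadjusted P under 0.05 were less steady, and 33 of 108 alternative values moved by over 1.5 times. On day 5 the 4 ran from 0 to 15 and on day 10 the 0 went up to 6, both when samples were left out, with 7 on day 5 under DESeq2 and 1 on day 10 with all 26 samples in 1 fit. The 37 of day 30 became 24 with no filter and 10 with all 26 samples in 1 fit. The 6 of day 10 over day 5 control became 17 with DESeq2. The share of all genes at this P is not given for these alternatives or for the blocked fits below, so nothing is read from their counts.

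With the replicate number as a block, 42 members were called in time (median -0.98), among 1806 genes in all. No member was called elsewhere. Genes of any kind called were 4 on day 5, 10 on day 20 and 77 for day 10 over day 5 control. None was called on day 30 or for day 10 over day 5 treated. Blocked medians were 0.34 on day 5, 1.35 on day 20, 0.59 on day 30, 0.60 for day 10 over day 5 control and -0.19 for the treated. Members with an unadjusted P under 0.05 went from 48 to 0 at day 20 and from 37 to 1 at day 30. They went from 4 to 0 on day 5, from 6 to 2 for day 10 over day 5 control and from 0 to 2 for the treated. The groups compared shared only 2 numbers on day 20, on day 30 and for day 10 over day 5 control. That leaves these blocked fits little to estimate the spread, so their loss of low P values decides nothing. Day 10 treated and control share 1 number, so no blocked fit was made. Deviations of same-numbered samples had a mean correlation of 0.153 on day 5, -0.271 on day 10 (1 pair), -0.389 on day 20, -0.0738 on day 30, -0.0658 in time and -0.0432 for day 10 over day 5 control. For day 10 over day 5 treated it was 0.366, with 3 pairs from 0.0654 to 0.674, against -0.0949 for other pairs. As 1 of these 3 pairs was under 0.1 and the labels name no shared animal or batch, the numbers were not taken to pair the samples.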
